A study of Mus musculus with 4 samples.

Results

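The glial markers read here were 9 genes, chosen by symbol from the 34968 symbols shared by all 4 libraries. Gfap, Aqp4, Slc1a2, Slc1a3 and Aldh1l1 mark astrocytes, and Pdgfra, Cspg4, Sox10 and Mbp mark the oligodendrocyte lineage. All 9 were listed in every library. The libraries were bulk RNA-seq of mouse ES-derived neurons, collected by flow cytometry as tdTomato+ cells from embryoid bodies on day 12 of differentiation. All carried the parental line Dlx6-Cre; Ai9 on a C57/BL6 background, in which Cre driven by Dlx6a switches on tdTomato in subpallial neuronal lineages. Both lines were neuralised with the Wnt inhibitor XAV-939 and ventralised with the hedgehog agonist SAG. The N/D line had Nkx2-1 and Dlx2 as transcriptional specifiers, with Nkx2-1 under a Nestin promoter and Dlx2 under a Tet-responsive one. The N/D/S line had Nkx2-1, Dlx2 and V5-tagged St18. Each line was expanded from selected ES cell clones. Each gave 2 libraries, numbered replicate 1 and replicate 2, and no label says whether these came from separate differentiations, so any error given covers only the spread between these libraries. Values are TPM, transcript abundances scaled to transcript length and library total, so levels can be compared between genes. Depth cannot be read from TPM.

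Astrocytes take up glutamate, buffer water and ions and supply neurons, while oligodendrocytes wrap axons in myelin. Both arise from neural progenitors, in mouse mostly after the first wave of neurons, and the ganglionic eminences are a source of early oligodendrocyte precursors. A gene that marks either glial class in the adult can also be read from radial glia or from other tissues, so single markers are not specific to 1 cell type. The list was proposed with values from these files already known. Levels and differences of its members are therefore a description, and the counts below are set beside the same counts over all genes.

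A limit of the libraries comes before the results. In the library labelled N/D replicate 1, 47.2% of the 9670 genes with a mean of 1 to 50 TPM in the other libraries had under 0.1 TPM, against 1.1% to 6.9% when each of the other libraries was taken in turn. St18, the factor that separates the lines by design, was at 44.5 TPM in N/D/S replicate 1, 15.9 TPM in N/D/S replicate 2, 28.5 TPM in N/D replicate 1 and 26.6 TPM in N/D replicate 2. St18 did not separate the lines, and which library is N/D/S rests on the labels. The lists of symbols also went by replicate number, with 35197 symbols in both replicate 1 files and 35204 in both replicate 2 files, of which 203 and 210 were absent from the other number. Differences between replicate numbers cannot be told apart from this difference in processing.

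Glial markers were low beside neuron genes in the sorted cells, and libraries of the same line differed widely. Summed over the 9 markers, TPM was 25.5 in N/D/S replicate 1, 51.1 in N/D/S replicate 2, 0.09 in N/D replicate 1 and 133.8 in N/D replicate 2. The 15 neuron genes listed for comparison, among them Tubb3, a neuronal tubulin, and Stmn2, a growth cone protein, summed to between 3769.0 and 5840.9 TPM. All 15 neuron genes were at 1 TPM or more in each library. So were 8 to 12 of the 12 radial glia and progenitor genes, so this does not show that the sorted cells were all neurons. At 1 TPM or more there were 3 of the 9 glial markers in N/D/S replicate 1, 6 in N/D/S replicate 2, 0 in N/D replicate 1 and 8 in N/D replicate 2. In a bulk sample, fewer glial cells and less glial RNA per cell cannot be told apart.

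**Figure D1:**
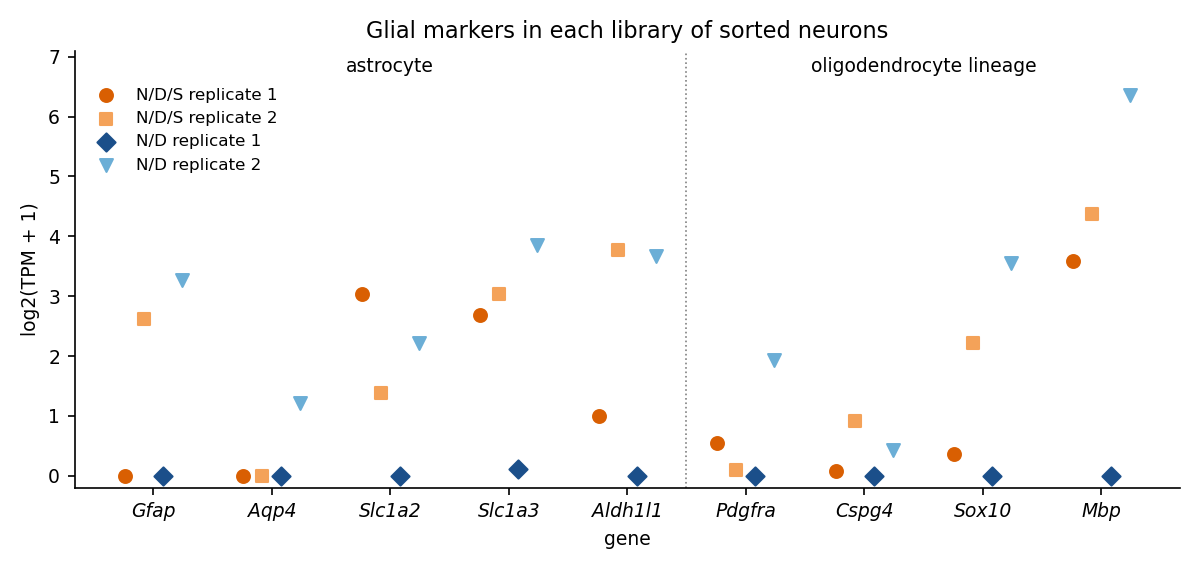
Each symbol is the level of a marker in 1 library, on the log2(TPM + 1) scale, with astrocyte markers left of the dotted line and oligodendrocyte lineage markers right of it. N/D replicate 1 lies at or near 0 throughout, and N/D replicate 2 is the highest library for 6 of the 9 markers, led by Mbp.

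Among astrocyte markers, 1 promoter window each is shown for Gfap, Aldh1l1, Slc1a3 and Slc1a2, because these genes differed in how they varied between libraries. Gfap and Aldh1l1 were low in both replicate 1 libraries and high in both replicate 2 libraries, while Slc1a2 was highest in N/D/S replicate 1. The sequences are from RefSeq on GRCm38.p6, from 250 bases before to 50 bases after the start, 5′ to 3′ on the strand of the gene. The windows are chr11:102897151-102897450 (minus strand) for Gfap, chr6:90550543-90550842 (plus) for Aldh1l1, chr15:8710758-8711057 (minus) for Slc1a3 and chr2:102706188-102706487 (plus) for Slc1a2. Those of Gfap, Aldh1l1 and Slc1a2 lie inside the gene spans given below. Starts of annotated transcripts further upstream are not covered by them. Capitals mark matches on either strand to TTCNNNGAA, the core bound by STAT factors, to TTGGC, part of the NFI site, or to TATAAA, the TATA box.
Gfap: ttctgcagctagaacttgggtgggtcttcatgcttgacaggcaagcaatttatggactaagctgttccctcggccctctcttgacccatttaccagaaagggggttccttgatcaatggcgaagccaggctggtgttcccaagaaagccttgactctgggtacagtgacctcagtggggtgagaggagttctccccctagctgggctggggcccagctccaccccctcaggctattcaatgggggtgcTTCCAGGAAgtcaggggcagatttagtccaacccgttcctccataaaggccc
Aldh1l1: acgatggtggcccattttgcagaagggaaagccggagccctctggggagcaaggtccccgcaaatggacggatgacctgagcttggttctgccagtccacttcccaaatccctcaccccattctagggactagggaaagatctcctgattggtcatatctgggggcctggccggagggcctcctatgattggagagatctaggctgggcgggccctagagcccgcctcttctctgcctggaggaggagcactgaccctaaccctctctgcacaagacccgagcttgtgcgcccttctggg
Slc1a3: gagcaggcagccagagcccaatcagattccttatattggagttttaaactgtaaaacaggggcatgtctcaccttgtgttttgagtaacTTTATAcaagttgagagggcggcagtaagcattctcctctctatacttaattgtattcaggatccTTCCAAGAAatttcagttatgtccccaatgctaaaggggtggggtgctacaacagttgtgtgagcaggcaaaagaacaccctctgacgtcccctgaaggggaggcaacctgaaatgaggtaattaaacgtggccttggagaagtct
Slc1a2: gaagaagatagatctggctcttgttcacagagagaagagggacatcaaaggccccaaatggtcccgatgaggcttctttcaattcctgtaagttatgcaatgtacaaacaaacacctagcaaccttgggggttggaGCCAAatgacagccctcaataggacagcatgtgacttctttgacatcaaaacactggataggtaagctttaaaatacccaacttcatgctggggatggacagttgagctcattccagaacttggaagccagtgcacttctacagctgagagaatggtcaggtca
Gfap and Slc1a3 each held 1 match to TTCNNNGAA, Slc1a3 also 1 to TATAAA, and Slc1a2 held 1 to TTGGC. Aldh1l1 held 0 matches. No match overlapped another. Of the 32851 promoters of this length in the table, 8.3% held TTCNNNGAA, 46.7% TTGGC and 13.6% TATAAA. These are matches of letters only and say nothing of binding.

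Gfap, the intermediate filament of astrocytes, lies on chromosome 11 of GRCm38 from 102887336 to 102900912 (minus strand) and has 3 annotated transcripts in GENCODE M21. Gfap was listed at 0 in both replicate 1 libraries, N/D/S and N/D. It had 5.18 TPM in N/D/S replicate 2 and 8.65 TPM in N/D replicate 2. Within either line, then, Gfap was above 0 only in the library numbered 2, and the lines overlapped. The log2 difference of N/D/S minus N/D was -0.32 (standard error 1.47, n = 2 libraries per line) in limma on log2(TPM + 1).

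Aldh1l1, a folate enzyme used to mark astrocytes and also expressed by radial glia, lies on chromosome 6 from 90486427 to 90600203 (plus strand, 7 transcripts). It had 0.99 TPM in N/D/S replicate 1, 12.7 TPM in N/D/S replicate 2 and 11.7 TPM in N/D replicate 2, and was listed at 0 in N/D replicate 1. Both replicate 2 libraries were high and lay close together, while N/D/S replicate 1 lay 12.8-fold below N/D/S replicate 2. The log2 difference between the lines was 0.55 (standard error 1.56). Aldh1l1 was the marker with the highest level of the astrocyte group in N/D/S replicate 2.

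Slc1a3 and Slc1a2 encode the glial glutamate transporters, of which Slc1a3 is already present in radial glia and Slc1a2 rises as astrocytes mature. Slc1a3, on chromosome 15 from 8634124 to 8710764 (minus strand, 8 transcripts), had 5.46 and 7.17 TPM in N/D/S replicates 1 and 2, 0.0807 TPM in N/D replicate 1 and 13.5 TPM in N/D replicate 2. Its N/D/S libraries differed least of the astrocyte markers detected in both, 1.31-fold, and both lay between the N/D libraries. The log2 difference between the lines was 0.88 (standard error 1.38). Slc1a2, on chromosome 2 from 102658659 to 102790784 (plus strand, 12 transcripts), had 7.23 and 1.6 TPM in N/D/S replicates 1 and 2, 0.0014 TPM in N/D replicate 1 and 3.67 TPM in N/D replicate 2. It was the only one of the 9 markers with its highest level in N/D/S replicate 1. The log2 difference between the lines was 1.10 (standard error 1.21). Aqp4, the water channel of astrocyte endfeet, on chromosome 18 (11 transcripts), had 1.32 TPM in N/D replicate 2 and was listed at 0 in the other libraries.

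Of the oligodendrocyte lineage markers, Mbp was by far the highest. Mbp encodes a structural protein of myelin, on chromosome 18, and its 16 annotated transcripts include Golli forms, which start upstream and are also made in neurons. The files give 1 value per symbol, so myelin and Golli transcripts cannot be told apart. Mbp had 11.0 TPM in N/D/S replicate 1, 19.8 TPM in N/D/S replicate 2 and 81.1 TPM in N/D replicate 2, and was listed at 0 in N/D replicate 1. N/D replicate 2 had 4.09-fold the level of N/D/S replicate 2 and 7.4-fold that of N/D/S replicate 1. In that library Mbp lay above 93.4% of all symbols. The log2 difference between the lines, 0.80, was smaller than its standard error of 1.96, since the N/D libraries lay on either side of both N/D/S libraries.

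Sox10, the transcription factor that drives oligodendrocyte differentiation and is also used by neural crest, lies on chromosome 15 from 79154908 to 79165240 (minus strand, 4 transcripts). It had 0.285 TPM in N/D/S replicate 1, 3.65 TPM in N/D/S replicate 2 and 10.7 TPM in N/D replicate 2, and was listed at 0 in N/D replicate 1. As for Gfap and Aldh1l1, both replicate 2 libraries were high and both replicate 1 libraries low. The log2 difference between the lines was -0.48 (standard error 1.43). The 6 genes listed as neural crest or Schwann genes did not follow Sox10. Their summed level was 18.1 and 1.4 TPM in N/D/S replicates 1 and 2, and 23.5 and 8.1 TPM in N/D replicates 1 and 2.

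Pdgfra and Cspg4 mark oligodendrocyte precursors. Pdgfra, a growth factor receptor also made by mesenchyme, lies on chromosome 5 from 75152292 to 75198215 (plus strand, 9 transcripts). It had 0.469 and 0.0717 TPM in N/D/S replicates 1 and 2 and 2.83 TPM in N/D replicate 2, and was listed at 0 in N/D replicate 1. Cspg4, a membrane proteoglycan also made by pericytes, lies on chromosome 9 from 56865033 to 56899870 (plus strand, 4 transcripts). Its levels were 0.0637 and 0.891 TPM in N/D/S replicates 1 and 2 and 0.0031 and 0.343 TPM in N/D replicates 1 and 2. Cspg4 was thus under 1 TPM in every library, and Pdgfra reached 1 TPM only in N/D replicate 2. The 10 pericyte and vascular genes were uneven. Rgs5, Abcc9 and Kcnj8 had at most 0.0951 TPM in any library, while Pdgfrb, the receptor of pericytes, had 1.02 TPM in N/D/S replicate 1 and 0.991 TPM in N/D replicate 2, above Cspg4 in the same libraries, and Acta2, a smooth muscle actin, had 1.42 TPM in N/D/S replicate 2. Their summed level, 4.4 to 38.8 TPM, was mostly Pecam1, and their part in the Cspg4 values was not tested.

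The comparison of the lines asks what St18 changes when added to Nkx2-1 and Dlx2. The fit took the 12975 genes that reached 1 TPM in 2 libraries or more, which included 6 of the 9 markers. Aqp4, Pdgfra and Cspg4 fell below this minimum. At a Benjamini-Hochberg adjusted p under 0.05 in limma, 0 of the 6 markers were higher and 0 lower in N/D/S, beside 0% of all genes in either direction. At an unadjusted p under 0.05 it was 0 of the 6 markers, and 3 genes higher (0.0231%) and 5 lower (0.0385%) among all genes. With this spread between libraries, 0 calls do not show that the lines did not differ. An exact permutation test, two-sided, cannot go below p = 0.333 with 2 libraries per line. In 0 of the 6 did both N/D/S libraries lie above both N/D libraries, beside 8.69% of all genes, and in 0 of the 6 did both lie below, beside 8.23%. Gfap, Aldh1l1 and Sox10 reached 1 TPM in the replicate 2 libraries alone. For these genes neither order was possible, so both counts are a description. For each of the 6, the residual standard deviation within lines exceeded the log2 difference, and it ran from 1.39 for Slc1a2 to 3.2 for Mbp. The median log2 difference of the 6 markers was 0.67, beside 0.26 over all genes.

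With N/D replicate 1 left out, the median of the 6 markers was -1.62, beside -0.29 over all genes. The log2 differences were then -1.96 for Gfap, -0.01 for Slc1a2, -0.99 for Slc1a3, -1.29 for Aldh1l1, -2.26 for Sox10 and -2.38 for Mbp, each with a standard error of 1.15. In this fit N/D has 1 library, which is assumed to vary like those of N/D/S. The sign of Slc1a2, Slc1a3, Aldh1l1 and Mbp thus turned on this library. Gfap and Sox10 stayed below 0 here, but turned above 0 without N/D/S replicate 1, at 0.99 and 0.44, and without N/D replicate 2, at 1.31 and 1.29. Aldh1l1 was also below 0 without N/D/S replicate 2, at -0.84.

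**Figure D2:**
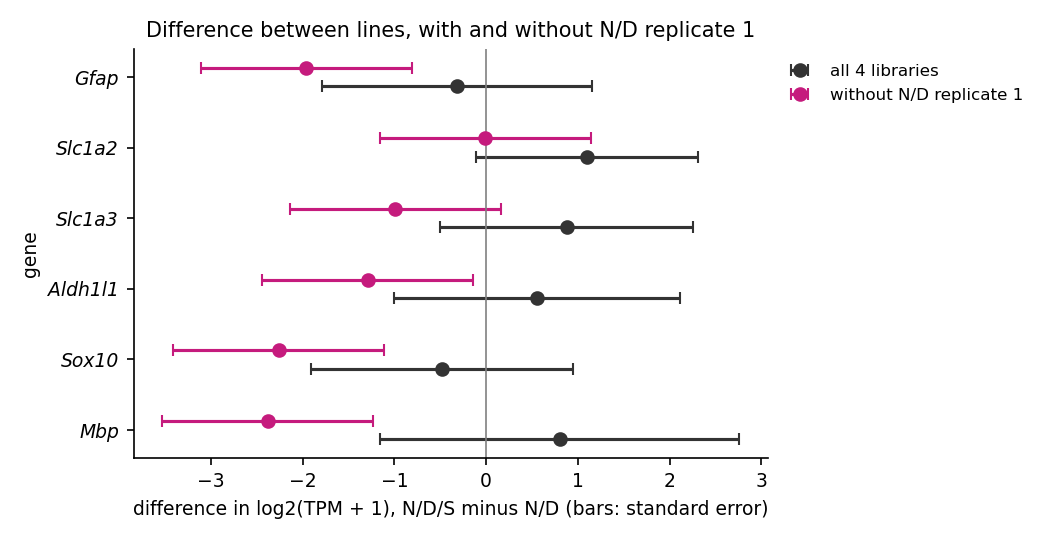
Points are the difference in log2(TPM + 1) of N/D/S minus N/D for the 6 markers fitted, and bars are the standard error. With all 4 libraries every bar extends past 0 on both sides, and without N/D replicate 1 the values move down, to between -2.38 and -0.01.

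Within replicate numbers, the lines differed in opposite ways over all genes, and the markers went with them. In replicate 1, 7 of the 9 markers were higher in the N/D/S library, beside 72.5% of all genes fitted, and the other 2, Gfap and Aqp4, were listed at 0 in both. N/D replicate 1 was also the lowest of the 4 libraries for 7 of the 9 markers, and for 5 of the 6 fitted, beside 56.3% of all genes. In replicate 2, 7 of the 9 markers were higher in the N/D library, the exceptions being Aldh1l1 and Cspg4, beside 74.7% of all genes fitted. The 7 higher in N/D/S in replicate 1 and the 7 higher in N/D in replicate 2 were near the share of all genes. Nothing about the markers is read from these counts, and the 9 include Aqp4, Pdgfra and Cspg4, which were not fitted. Over the 4 libraries, 6 of the 9 markers had their highest level in N/D replicate 2, and still 6 of 9 without N/D replicate 1. Of the 6 markers fitted it was 4, beside 25.3% of all genes, or 31.9% without N/D replicate 1. Gfap, Aldh1l1 and Sox10 reached 1 TPM in the replicate 2 libraries alone. The filter thus fixed that their highest library was numbered 2 and their lowest 1, so the counts of highest and lowest libraries are a description.

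Both N/D/S libraries also differed from each other, and 6 of the 9 markers were higher in replicate 2. Gfap, Slc1a3, Aldh1l1, Cspg4, Sox10 and Mbp were the 6 higher ones, Slc1a2 and Pdgfra were lower, and Aqp4 was listed at 0 in both. Of the 6 markers fitted, 5 were higher in replicate 2, beside 26.8% of all genes. Of these 5, Gfap, Aldh1l1 and Sox10 reached 1 TPM in the replicate 2 libraries alone, as did 2.87% of all genes, so the filter fixed this direction for them and the count is a description. The median of all genes was -0.69 on the log2(TPM + 1) scale, while Aldh1l1 differed by 2.78, Gfap by 2.63, Sox10 by 1.86, Mbp by 0.80, Slc1a3 by 0.34 and Slc1a2 by -1.66. Neuron genes went the other way, with 0 of 15 higher in replicate 2 and Dcx, a microtubule protein of migrating neurons, chosen after its values were seen, at 122.5 TPM against 17.9 TPM. With 1 library on either side, this difference has no replicate check.

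**Figure D3:**
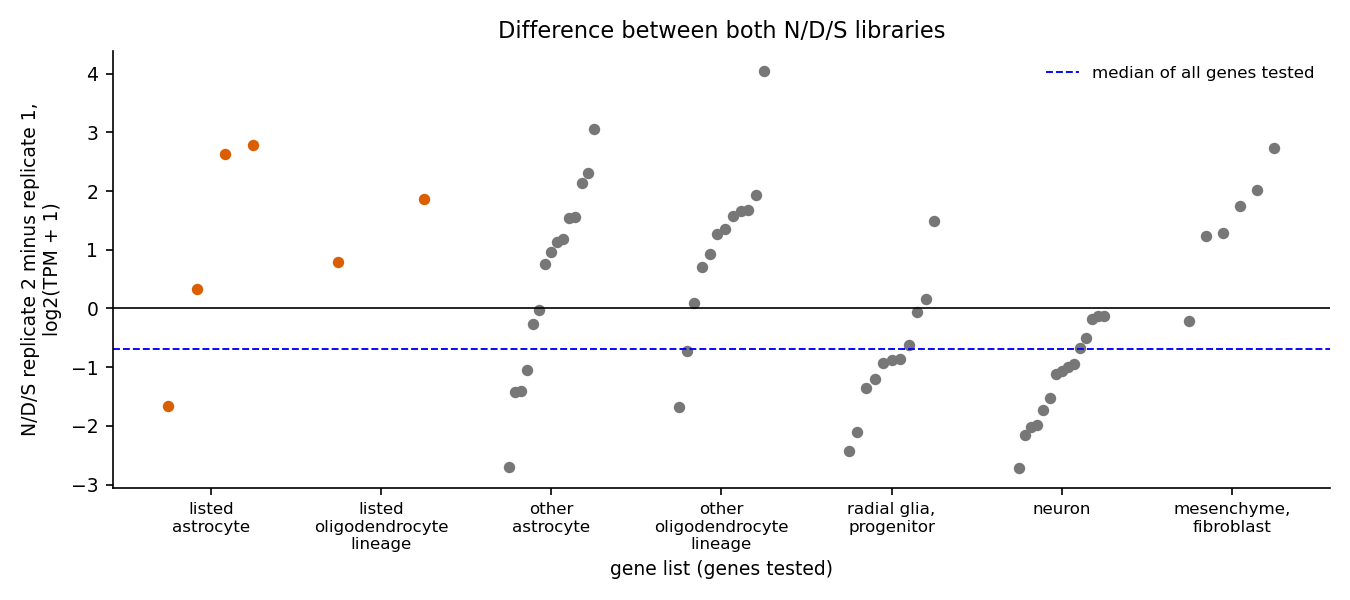
Each point is a fitted gene, plotted by its difference in log2(TPM + 1) between N/D/S replicate 2 and N/D/S replicate 1, by gene list, with listed glial markers in orange and the median of all genes as a dashed line at -0.69. Most glial and mesenchyme genes lie above 0, as the filter fixed for those with 1 TPM in the replicate 2 libraries alone, and the neuron genes lie below it.

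Other glial genes were read from lists of 20 each. Of 20 further astrocyte genes, 15 were fitted and 0 passed the adjusted threshold. In N/D/S, 9 of the 15 were higher in replicate 2 than in replicate 1, beside 26.8% of all genes. The filter fixed that direction for 2 of them, beside 2.87% of all genes. The median log2 difference of the 15 genes between the lines was 0.10, and -0.70 without N/D replicate 1. Apoe, a lipid carrier, had 10.7 and 96.7 TPM in N/D/S replicates 1 and 2, 62.1 TPM in N/D replicate 2 and 0 in N/D replicate 1. Aldoc, a glycolytic enzyme of astrocytes, had 26.5 and 52.5 TPM in N/D/S replicates 1 and 2, 55.4 TPM in N/D replicate 2 and 0.23 TPM in N/D replicate 1. Apoe was thus highest in N/D/S replicate 2 and Aldoc in N/D replicate 2. Clu, a secreted chaperone, was the 1 gene of the 15 higher in both N/D/S libraries, beside 8.69% of all genes, at 24.0 and 23.6 TPM against 0.0426 and 21.1 TPM in N/D. Ednrb, an endothelin receptor, was the 1 gene lower in both, beside 8.23% of all genes, at 11.8 and 3.82 TPM against 23.5 and 17.9 TPM. With 1 of 15 in either direction, the list was near the share of all genes, and nothing is read from these counts.

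Of 20 further oligodendrocyte lineage genes, 12 were fitted and 0 passed the adjusted threshold. In N/D/S, 10 of the 12 were higher in replicate 2 than in replicate 1, beside 26.8% of all genes. The filter fixed that direction for 5 of them, beside 2.87% of all genes. Olig1, a transcription factor of the lineage, had 0.524 TPM in N/D/S replicate 1, 24.2 TPM in N/D/S replicate 2 and 47.5 TPM in N/D replicate 2, and was listed at 0 in N/D replicate 1. This was the order of libraries seen for Sox10 and Mbp, and 6 of the 12 genes had it, beside 5.63% of all genes, though the filter fixed part of the order for those that reached 1 TPM in the replicate 2 libraries alone. Another 3 were highest in N/D/S replicate 2, beside 14.7% of all genes. Among them was Nkx2-2, a transcription factor of the lineage chosen after its values were seen. It had 7.14 and 25.1 TPM in N/D/S replicates 1 and 2, 11.9 TPM in N/D replicate 2 and 0 in N/D replicate 1. For the rest of these 3, the filter fixed that a replicate 2 library was highest. The median log2 difference of the 12 genes between the lines was -0.14, and -1.26 without N/D replicate 1. Ptprz1 and Ugt8a were lower in both N/D/S libraries than in both N/D libraries, beside 8.23% of all genes. Ugt8a, which makes a myelin lipid, was at 2.38 and 1.06 TPM in N/D/S replicates 1 and 2 against 25.9 and 6.39 TPM for N/D, a log2 difference of -2.42 (standard error 1.09, Benjamini-Hochberg adjusted p = 1 in limma).

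Not every glial gene was low in the library labelled N/D replicate 1. Of the 40 further glial genes, 7 had at least 1 TPM there. Glul, the glutamine synthetase of astrocytes and of radial glia, was highest in that library, at 137.5 TPM against 52.4 to 63.2 TPM in the others. Cnp, an enzyme of myelinating cells, had 76.8 TPM there against 38.3 to 106.9 TPM. Ptprz1, a phosphatase of radial glia and precursors, had 26.4 TPM there against 3.1 to 14.6 TPM. Of 12 radial glia and progenitor genes, 8 had at least 1 TPM in that library, with Vim, an intermediate filament, at 219.2 TPM and Fabp7, a lipid carrier of radial glia, at 133.6 TPM.

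**Figure D4:**
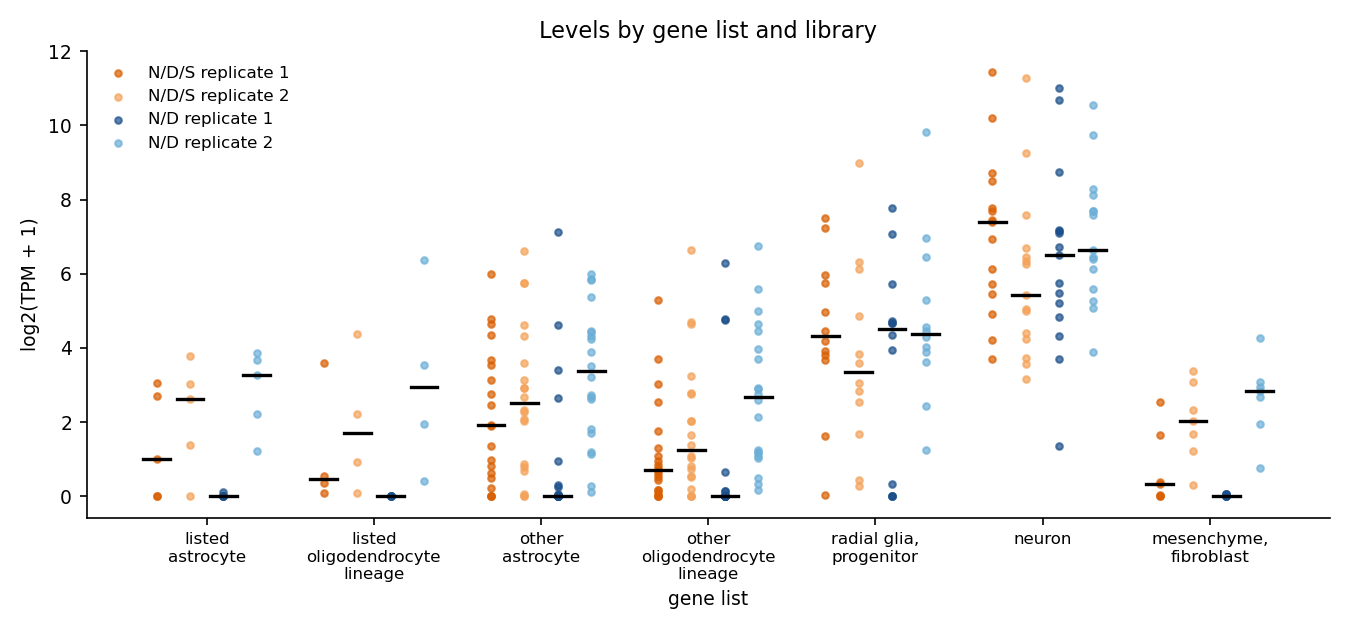
Each point is a gene of a list in 1 library on the log2(TPM + 1) scale, and black bars are medians. Neuron genes have medians between 42.0 and 169.0 TPM, while the medians of the glial and mesenchyme lists are at or near 0 in N/D replicate 1.

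Genes of other cell types moved with the glial markers in part. Radial glia and progenitor genes were at 513.3 to 1262.2 TPM in sum, and Fabp7 had 179.1 and 505.6 TPM in N/D/S replicates 1 and 2 and 906.5 TPM in N/D replicate 2, the order of Mbp. Of the 11 progenitor genes fitted, 2 were higher in N/D/S replicate 2 than in replicate 1, Fabp7 and Hes5, beside 26.8% of all genes. Mesenchyme and fibroblast genes did move with the glial markers. Their summed level over 7 genes was 7.6 and 27.8 TPM in N/D/S replicates 1 and 2 and 0.1 and 47.5 TPM in N/D replicates 1 and 2. Of the 6 fitted, 5 were higher in N/D/S replicate 2 than in replicate 1, beside 26.8% of all genes. The filter required this of 4, beside 2.87% of all genes. Col3a1, a fibrillar collagen, was at 2.14 TPM in N/D/S replicate 1, 9.49 TPM in N/D/S replicate 2, 18.2 TPM in N/D replicate 2 and 0 in N/D replicate 1. The 8 microglia genes summed to 1.7 to 3.1 TPM outside N/D replicate 1, where they summed to 0.0 TPM. P2ry12 had at most 0.0115 TPM in any library, but Aif1 had 1.24 TPM in N/D/S replicate 1 and 1.29 TPM in N/D replicate 2, and Tmem119 had 1.56 and 1.58 TPM in the replicate 2 libraries, beside 1.32 TPM for Aqp4 in N/D replicate 2. The part of other cell types in the glial values was not tested.

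The genes closest to each marker across the 4 libraries were found by the root mean square difference of log2(TPM + 1) after each gene was centred on its own mean. With 4 libraries this likeness is a description only. Nfix, a transcription factor of gliogenesis, was closest to Gfap (0.194), before Obp2a (0.201), and the next to closest to Sox10 (0.17), while Zfp42, a gene of pluripotent cells, was closest to Sox10 (0.075). Pcp4l1 and Itm2a were closest to Mbp, at 0.294 and 0.315, and Ctxn2 and Spp1 to Aldh1l1, at 0.149 and 0.181. The profile of Mbp was shared by few genes, 7 within 0.5, and that of Sox10, Gfap and Aldh1l1 by 47, 48 and 61. Slc1a3 and Slc1a2 had common profiles, with 764 and 1634 genes within 0.5, the closest being Cdh4 (0.032) and Adgra1 (0.062) to Slc1a3, and Fam126b (0.048) and Zfp518b (0.051) to Slc1a2.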

How the data were processed

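RNA of sorted tdTomato+ neurons was poly-A selected and sequenced as paired-end reads. The authors pseudoaligned reads with kallisto 0.44.0 to a mouse transcriptome and deposited TPM per gene symbol, 1 file per library. GRCm38 is named in the submitters' processing notes. The transcriptome release, the way transcripts were summed to symbols and any scaling between libraries are not given in the sources used here. TPM keep no counts, so depth is unknown and no interval for counting error is given.

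Files were joined on symbol, leaving out 26 rows per file whose symbols had become dates. Genes reaching 1 TPM in 2 or more of the 4 libraries, 12975 in all, were fitted with limma 3.58.1 in R 4.3.3 on log2(TPM + 1), with line as the sole term and Benjamini-Hochberg adjustment over all genes. Sleuth, used by the authors, needs kallisto output that was not used here and was not run. The fit was tested on simulated data. Python 3.11.15, pandas 2.3.3, numpy 2.4.6 and matplotlib 3.10.9 made tables and figures. Gene positions are from GENCODE M21.

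Markers and gene lists were chosen with earlier results of these data known. Named were the 9 markers, in each other list the 4 genes of highest mean TPM, up to 2 genes per direction and list whose lines do not overlap, the 2 closest genes to each fitted marker, and any gene said to be chosen later; markers given as near 0 (Rgs5, Abcc9, Kcnj8, Cdh5, P2ry12) were chosen after their values were seen. Dlx6os1 matched no symbol. Results for items withheld for evaluation are left out. Alternatives were pseudocounts of 0.1 and 0.5, other filters, other scaling, replicate number as a block, and each library left out in turn; counting highest libraries without N/D replicate 1 was added after seeing the data.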

Additional observations from a re-analysis of the deposited data

How the results depend on the processing

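With all 4 libraries, each alternative gave 0 genes higher and 0 lower in N/D/S at an adjusted p under 0.05 from limma, and the median over all genes, 0.26 as reported, was 0.14 with upper quartile scaling, 0.38 with a pseudocount of 0.1, 0.02 with no filter and -0.15 among genes with 1 TPM or more in every library. Leaving out a library gave 0 to 2213 genes higher and 0 to 160 lower, the highest counts without N/D replicate 2, when N/D is represented by N/D replicate 1 alone. With upper quartile scaling Gfap was at 0.02, and with a pseudocount of 0.1 Sox10 was at 0.21. Both were below 0 in the other settings with all 4 libraries. With 1 library left out, the log2 difference ranged from -1.96 to 1.31 for Gfap, -0.01 to 2.21 for Slc1a2, -0.99 to 2.75 for Slc1a3, -1.29 to 2.38 for Aldh1l1, -2.26 to 1.29 for Sox10 and -2.38 to 3.98 for Mbp. The value of 3.98 for Mbp, without N/D replicate 2, had a Benjamini-Hochberg adjusted p of 0.006 in limma, against an N/D library in which Mbp is listed at 0, so the pseudocount sets it. In all, 60 alternative values of the 6 markers were computed, of which 11 changed sign and 1 passed the threshold. With 2 libraries per line and the spread between them, staying short of the threshold says nothing of stability. The cause was not tested. With at least 1 TPM in every library, 0 of the 9 markers were fitted. Same-numbered libraries deviated from their line means with a correlation of 0.02 across genes, and the numbers were not taken to pair them. Whether same-numbered libraries shared a batch was not tested, and their lists of symbols went by replicate number. The limma fit with the replicate number as a block gave 0 genes past the threshold, with 3 higher and 6 lower at an unadjusted p under 0.05. Depth is unknown, so a listing at 0 sets no limit on the level.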

Other observations

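Within either line Foxd3 had the opposite order to Gfap and Sox10, with the higher level in replicate 1. Foxd3, a transcription factor of neural crest that is also made in pluripotent cells, had 9.58 TPM in N/D/S replicate 1 and 22.1 TPM in N/D replicate 1, but was listed at 0 in N/D/S replicate 2 and had 0.649 TPM in N/D replicate 2. Pecam1, an adhesion molecule of endothelium that mouse ES cells also express, was highest in N/D replicate 1 but not higher in N/D/S replicate 1 than in N/D/S replicate 2. It had 38.8 TPM in N/D replicate 1 and 2.41 to 8.06 TPM in the other libraries, while Cdh5, an endothelial cadherin, had at most 0.0058 TPM in any library.

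Hes5, a target of Notch signalling in radial glia, was the 1 of 11 progenitor genes fitted that was higher in both N/D/S libraries than in both N/D libraries, beside 8.69% of all genes. It had 61.8 and 69.2 TPM in N/D/S replicates 1 and 2, 22.6 TPM in N/D replicate 2 and was listed at 0 in N/D replicate 1. The log2 difference was 3.77 (standard error 1.55, Benjamini-Hochberg adjusted p = 1 in limma), and 1.49 without N/D replicate 1. Before adjustment its p in limma was 0.045, which made it 1 of the 3 genes (0.0231% of all) higher in N/D/S under 0.05. Top2a, an enzyme of dividing cells, was the 1 of 11 lower in both N/D/S libraries, beside 8.23% of all genes, at 17.3 and 6.17 TPM against 24.3 and 38.3 TPM in N/D, a log2 difference of -1.46 (standard error 1.03, adjusted p = 1 from the same limma fit). With 1 of 11 in either direction, the progenitor list was near the share of all genes, so these counts do not set the list apart.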
